A study of Mus musculus with 2 samples.

Results

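The genes described here are 10 members of the tumour necrosis factor (TNF) receptor superfamily and its ligands that are known from regulatory T (Treg) cells, a Foxp3-positive class of CD4 T cells that holds immune responses in check. They were taken by gene symbol from a table of 23337 symbols, and all 10 were found. The members were Tnfrsf4, Tnfrsf18, Tnfrsf9, Cd27, Tnfrsf8, Tnfrsf1b, Tnfrsf1a, Tnfrsf25 and Fas, which encode receptors, and Cd40lg, which encodes a ligand and is no receptor gene. The IL-33 library came from Treg cells of muscles injured with cardiotoxin, a venom protein that destroys muscle fibres, with 0.3 ug of recombinant IL-33, and the PBS library from muscles injured with cardiotoxin and PBS. Both came from 8-week-old male mice on a C57BL/6 background carrying the Foxp3-IRES-GFP reporter, were made from 5000 sorted cells each, and were taken 4 days after injury, so injured muscle was common to both. The labels do not give the number of mice behind each library, and an uninjured group is not analysed here. The design asks how added IL-33 relates to gene expression in muscle Treg cells. Each group held 1 library. Differences between them therefore have no replicate check and no test, and "higher" and "lower" compare 2 libraries. Values are given as "with IL-33" and "with PBS" for the libraries so named.

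Receptors of the TNF superfamily are cell-surface proteins with cysteine-rich outer parts that bind trimeric ligands. Those without a death domain recruit TRAF adaptor proteins and pass signals to NF-kB and to survival genes. The death-domain receptors recruit TRADD or FADD, and through them caspases or NF-kB. Treg cells are known for constant display of GITR (Tnfrsf18), OX40 (Tnfrsf4) and TNFR2 (Tnfrsf1b), through which they respond to costimulation and to TNF.

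The table summed to 4080791 counts with IL-33 and 1573707 with PBS, a ratio of 2.59. Levels are given as CPM, a gene's count scaled to the library total, and 1 count is worth 0.245 CPM with IL-33 and 0.635 CPM with PBS. Where no read was counted, up to 3 counts may have been missed, or 0.735 CPM with IL-33 and 1.91 CPM with PBS. All intervals are 95% intervals and cover counting error only, since each group held 1 library. Amplified reads without molecular identifiers are not independent molecules, so the intervals may be too narrow even for counting error. Each of the 7 genes looked at for Treg cells was detected in each library, but Cd4, Cd3e and Cd3g are not particular to them. The 7 summed to 10392 CPM with IL-33 and 10725 CPM with PBS. Ctla4 made up the largest part, at 6186 CPM with IL-33 and 6246 CPM with PBS. Foxp3 itself had only 40 counts with IL-33 and 1 with PBS. Of the markers of other cells, Cd8a was at 0 in both libraries, but Cd8b1 was at 21.6 CPM with IL-33 and 13.3 CPM with PBS. The 4 B cell markers summed to 32.3 CPM with IL-33 and 26.7 CPM with PBS, the 5 dendritic cell markers to 16.4 CPM with IL-33 and 31.8 CPM with PBS, and the 3 endothelial markers to 49.3 CPM with IL-33 and 52.1 CPM with PBS. The dendritic cell markers were split. Itgax had 0 counts with IL-33 and 19 with PBS, and H2-Ab1 was at 1.72 CPM with IL-33 and 12.1 CPM with PBS. Zbtb46 had 18 counts with IL-33 and 0 with PBS, and Xcr1 was at 10.3 CPM with IL-33 and 7.63 CPM with PBS. Flt3 had 0 counts in each library. Of the endothelial markers, Pecam1 was at 48.5 CPM with IL-33 and 45.1 CPM with PBS. Cdh5 was at 0.735 CPM with IL-33 and 6.99 CPM with PBS, and Kdr was at 0 in both. The NK cell, neutrophil and muscle cell lists each summed to at most 4.41 CPM with IL-33 and 5.72 CPM with PBS. Of 7 monocyte and macrophage markers, 4 were detected with IL-33 and 5 with PBS, they summed to 20.8 CPM with IL-33 and 41.9 CPM with PBS, and Cd68 and Fcgr1 were at 0 in both. Of 5 fibroblast markers, 0 were detected with IL-33 and 3 with PBS, and they summed to 0 CPM with IL-33 and 66.1 CPM with PBS. Fas, Tnfrsf1a and Tnfrsf1b are also transcribed in such cells, whose part in the levels of these genes was not tested. In bulk libraries, fewer cells of a type and less RNA per cell cannot be told apart.

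Of the members, 6 lie on mouse chromosome 4 in build GRCm38, the assembly that mm10 names, and 4 of them form neighbouring pairs. Tnfrsf4 (156013843 to 156016612, plus strand) and Tnfrsf18 (156026164 to 156028895, plus strand) are 9551 bases apart. Tnfrsf1b (145213463 to 145246870, minus strand) and Tnfrsf8 (145267137 to 145315164, minus strand) are 20266 bases apart. Tnfrsf9 (150914562 to 150946102) and Tnfrsf25 (152115934 to 152120119) lie between the pairs. Tnfrsf1a (125349362 to 125362484) and Cd27 (125232622 to 125237010) are on chromosome 6, Fas (34290666 to 34327772) on chromosome 19 and Cd40lg (57212143 to 57224042) on chromosome X. The members on chromosome 4 span the most abundant ones and the undetected Tnfrsf8.

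RefSeq promoter windows of 300 bases (250 before the annotated start and 50 from it, build GRCm38.p6) were found for 9 members. For Cd40lg none was found. Shown are the windows of Tnfrsf1b and Tnfrsf1a, which share a ligand but differed widely in level, of Tnfrsf8, the undetected neighbour of Tnfrsf1b, and the downstream of 2 windows of Tnfrsf9, which held the most kinds of motif among the members on chromosome 4 that were detected. They run 5′ to 3′ in the direction of transcription, and capitals mark matches, on either strand, to the kB motif, AP-1 (TGANTCA), forkhead (TGTTTNC), ETS (CCGGAAG), the GC box (GGGCGG), the TATA box (TATAAA) or RUNX (TGTGGTT).
Tnfrsf1b, chr4:145246821-145247120, minus strand: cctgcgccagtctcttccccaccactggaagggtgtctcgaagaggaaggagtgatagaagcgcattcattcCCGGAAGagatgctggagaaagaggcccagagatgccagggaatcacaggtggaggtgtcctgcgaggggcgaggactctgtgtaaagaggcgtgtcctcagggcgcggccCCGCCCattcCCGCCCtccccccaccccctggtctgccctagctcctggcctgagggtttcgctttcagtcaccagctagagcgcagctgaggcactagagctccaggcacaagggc
Tnfrsf1a, chr6:125349473-125349772, plus strand: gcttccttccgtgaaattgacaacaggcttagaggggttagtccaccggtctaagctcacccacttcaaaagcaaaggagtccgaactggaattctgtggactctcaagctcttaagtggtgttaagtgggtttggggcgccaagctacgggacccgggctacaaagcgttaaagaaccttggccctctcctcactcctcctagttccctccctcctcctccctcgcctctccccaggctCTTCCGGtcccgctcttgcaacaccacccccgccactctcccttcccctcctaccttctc
Tnfrsf8, chr4:145315115-145315414, minus strand: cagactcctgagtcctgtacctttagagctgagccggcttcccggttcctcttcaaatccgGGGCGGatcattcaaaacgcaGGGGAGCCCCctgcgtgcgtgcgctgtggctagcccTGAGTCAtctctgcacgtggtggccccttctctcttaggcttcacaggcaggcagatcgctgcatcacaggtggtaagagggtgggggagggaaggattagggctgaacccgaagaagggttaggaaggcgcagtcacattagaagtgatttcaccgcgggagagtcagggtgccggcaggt
Tnfrsf9, chr4:150927749-150928048, plus strand: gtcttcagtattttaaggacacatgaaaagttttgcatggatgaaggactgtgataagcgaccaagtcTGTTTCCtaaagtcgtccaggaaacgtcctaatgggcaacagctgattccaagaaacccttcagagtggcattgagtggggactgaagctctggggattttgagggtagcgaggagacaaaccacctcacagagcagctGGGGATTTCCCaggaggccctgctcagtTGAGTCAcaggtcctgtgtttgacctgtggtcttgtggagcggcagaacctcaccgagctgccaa

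The Tnfrsf1b window held an ETS match 178 bases before the start and GC boxes 67 and 57 bases before it, and the Tnfrsf1a window held an ETS match 10 bases before the start. ETS matches occurred in 8.86% of the 32851 RefSeq windows of the same length and GC boxes in 35.7%. The Tnfrsf9 window held a pair of overlapping kB matches starting 43 and 42 bases before the start, an AP-1 match 15 bases before it and a forkhead match 182 bases before it. The Tnfrsf8 window, of a gene with 0 counts, also held a kB match, an AP-1 match and a GC box. A kB match occurred in 4.51% of all windows, an AP-1 match in 7.81% and a forkhead match in 20.5%. The windows of Tnfrsf4, Tnfrsf18 and Cd27 held no match to any of these motifs, and the TATA box (13.6% of all windows) and RUNX (5.27%) matched in none of the 9 members. These matches describe letters in the windows and are not shown to be sites.

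Of the costimulatory receptors without a death domain, Tnfrsf4, Tnfrsf18, Tnfrsf9 and Cd27 were abundant and Tnfrsf8 was not detected. Tnfrsf4 encodes OX40, which supports the growth and survival of activated T cells. It had 3191 counts, or 782 CPM, with IL-33, against 1574 counts, or 1000.2 CPM, with PBS. Its ratio of IL-33 over PBS was 0.782 (0.736 to 0.831), so it was lower with IL-33. Tnfrsf18 encodes GITR, a costimulatory receptor displayed at high levels by Treg cells. It had 2305 counts, or 565 CPM, with IL-33, against 752 counts, or 478 CPM, with PBS, a ratio of 1.18 (1.09 to 1.29). The neighbours Tnfrsf4 and Tnfrsf18 thus lay on opposite sides of 1. An antisense gene, Gm16008, overlaps 414 exon bases of Tnfrsf18, and since the treatment of strand is not stated, reads of the pair could not be told apart there.

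Tnfrsf9 encodes CD137, a receptor induced by T cell receptor stimulation. It had 3846 counts, or 942 CPM, with IL-33, against 1419 counts, or 902 CPM, with PBS. Its ratio was 1.05 (0.983 to 1.11), an interval that holds 1, although scaling by trimmed mean of M-values (TMM) put it at 1.14 (1.07 to 1.21). Cd27 encodes the receptor for CD70, known from T cell memory and survival. It had 1128 counts, or 276 CPM, with IL-33, against 386 counts, or 245 CPM, with PBS, a ratio of 1.13 whose interval began just above 1 and ended at 1.27. These levels were close in the 2 libraries. Tnfrsf8, which encodes CD30, a receptor of activated lymphocytes, had 0 counts in each library. It could have been present below 0.735 CPM with IL-33 and 1.91 CPM with PBS, and no fold can be given.

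The receptors for TNF were unequal. Tnfrsf1b encodes TNFR2, which has no death domain and through which TNF promotes Treg growth. It had 2470 counts, or 605 CPM, with IL-33, against 1174 counts, or 746 CPM, with PBS, a ratio of 0.811 (0.757 to 0.870). Tnfrsf1a encodes TNFR1, the death-domain receptor of most cell types. It had 66 counts, or 16.2 CPM, with IL-33, against 17 counts, or 10.8 CPM, with PBS, a ratio of 1.5 (0.868 to 2.72) that held 1. In counts per exon length, the level of Tnfrsf1b was 25.4 times that of Tnfrsf1a with IL-33 (19.9 to 32.9) and 46.9 times with PBS (29.1 to 80.7). These values rest on the length chosen: with the shortest coding transcripts, 3818 bases for Tnfrsf1b and 390 for Tnfrsf1a, they were 3.82 with IL-33 and 7.05 with PBS. The change in this ratio between libraries, which does not depend on scaling or length, was 0.542 for IL-33 over PBS (conditional odds ratio, interval 0.297 to 0.940), and it rested on the 17 Tnfrsf1a counts of the PBS library.

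The other death-domain receptors were low or moderate. Fas, the death receptor that limits activated T cells, had 286 counts, or 70.1 CPM, with IL-33, against 152 counts, or 96.6 CPM, with PBS, a ratio of 0.726 (0.594 to 0.889). Tnfrsf25 encodes DR3, the receptor for TL1A and a known stimulus of Treg growth. It had 56 counts, or 13.7 CPM, with IL-33, against 32 counts, or 20.3 CPM, with PBS, a ratio of 0.675 (0.430 to 1.08) that held 1. The counting interval of Fas thus left out 1 and that of Tnfrsf25 did not.

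Cd40lg differed most between the libraries. It encodes CD40 ligand, through which activated CD4 T cells help B cells and dendritic cells, and it is known mainly from conventional T cells. It had 75 counts, or 18.4 CPM, with IL-33, against 3 counts, or 1.91 CPM, with PBS. The ratio was 9.64 with an interval of 3.17 to 47.8, since the PBS library held only 3 counts. Its receptor gene Cd40 had 1 count with IL-33 and 0 with PBS.

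**Figure D1:**
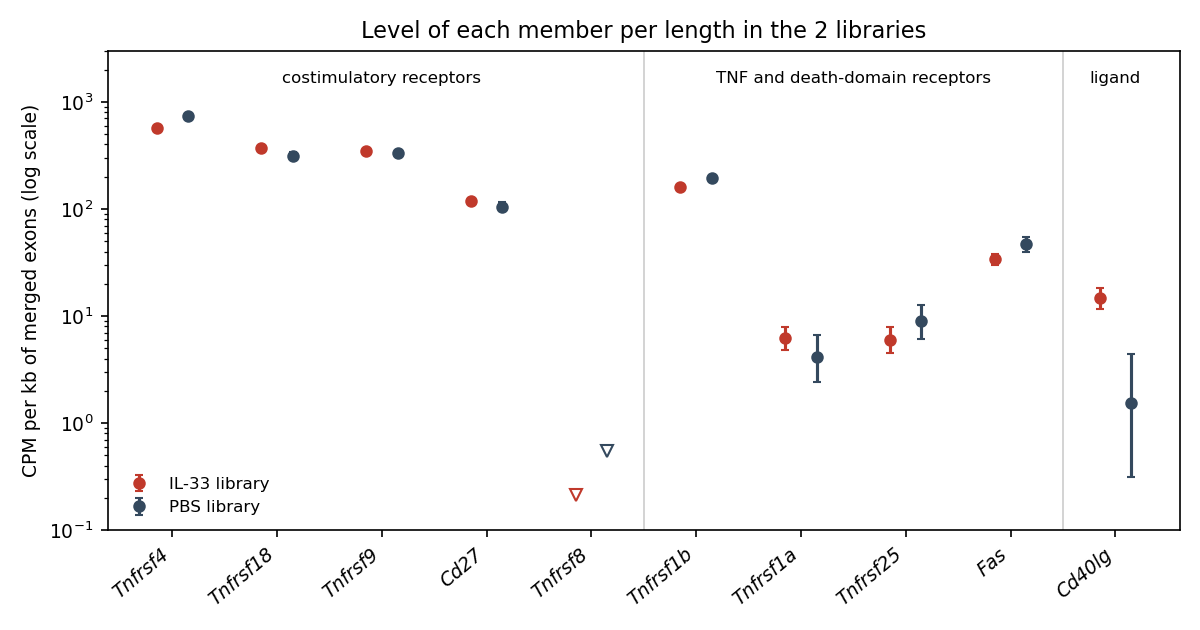
Level of each member per length in CPM per kb of merged exons (log axis), for the IL-33 library (red, left of each pair) and the PBS library (dark, right); bars are 95% Poisson intervals and open triangles show the limit that 3 counts give where the count was 0. The costimulatory receptors Tnfrsf4, Tnfrsf18 and Tnfrsf9 lie highest, Tnfrsf1a and Tnfrsf25 lie below 10 CPM per kb, and Cd40lg stands at 14.7 with IL-33 and 1.53 with PBS.

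**Figure D2:**
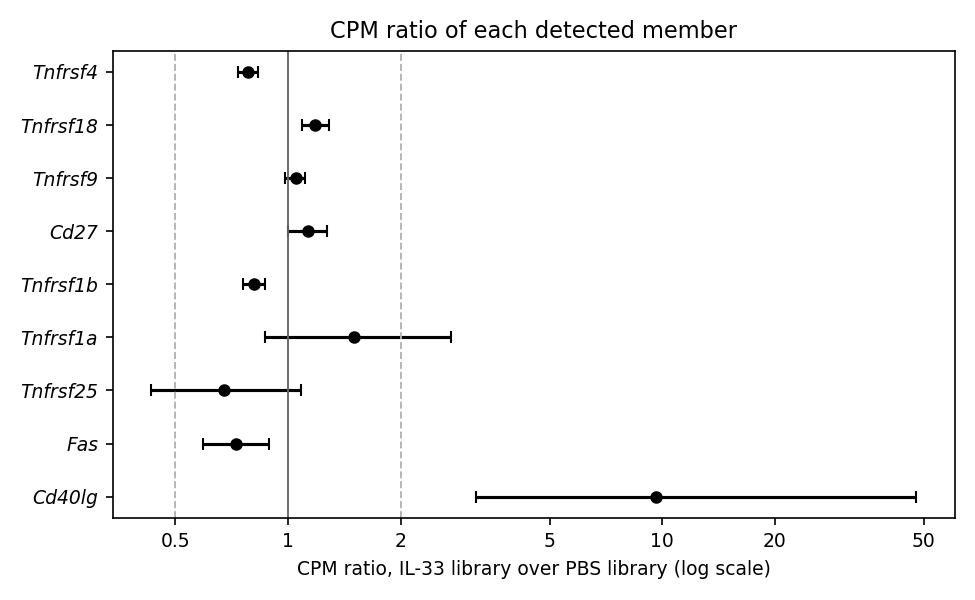
CPM ratio of IL-33 over PBS (log axis) for the 9 detected members, with exact 95% counting intervals; dashed lines mark 2-fold in either direction and Tnfrsf8, with 0 counts, has no ratio. The intervals of Tnfrsf9, Tnfrsf1a and Tnfrsf25 hold 1, and that of Cd40lg runs from 3.17 to 47.8.

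Of the 9 members over a floor of 5 CPM in at least 1 library, 1 (Cd40lg) was higher by 2-fold or more on the scale of log2(CPM + 1), 0 were lower, and 8 were within 2-fold. Of all 9005 genes over the floor, 15.5% were higher by 2-fold or more and 16.3% lower, 31.8% in all. With a floor of 20 CPM, Cd40lg was not among the genes compared. The log2 fold, which with the added 1 CPM understates differences of low genes, was 2.74 for Cd40lg, and the median over the members was 0.06, against -0.08 over all genes over the floor. In the range of 5 to 20 CPM that holds Cd40lg, Tnfrsf1a and Tnfrsf25, 49.5% of genes were at 2-fold or more in either direction and the central 95% of log2 folds ran from -3.71 to 3.98. The fold of Cd40lg lay inside that range. The 5 most abundant members, whose means reached 200 CPM, had log2 folds from -0.35 to 0.24, inside the central range of -0.83 to 0.82 for the 990 genes at such levels, of which 2.22% were at 2-fold or more.

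The counting intervals of 6 of the 9 members left out 1, against 63.7% of all genes over the floor. They were those of Tnfrsf4, Tnfrsf18, Cd27, Tnfrsf1b, Fas and Cd40lg, and at a mean of 200 CPM or more the share over all genes was 74.3%. An interval that leaves out 1 was therefore usual and does not mark these genes out. TMM scaling adds 0.12 to every log2 ratio, and with it 7 of the 9 intervals left out 1, Tnfrsf9 being the one added. Under TMM the ratio was 0.850 for Tnfrsf4, 1.29 for Tnfrsf18, 0.882 for Tnfrsf1b, 1.23 for Cd27 and 0.789 for Fas, each in the same direction as before.

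**Figure D3:**
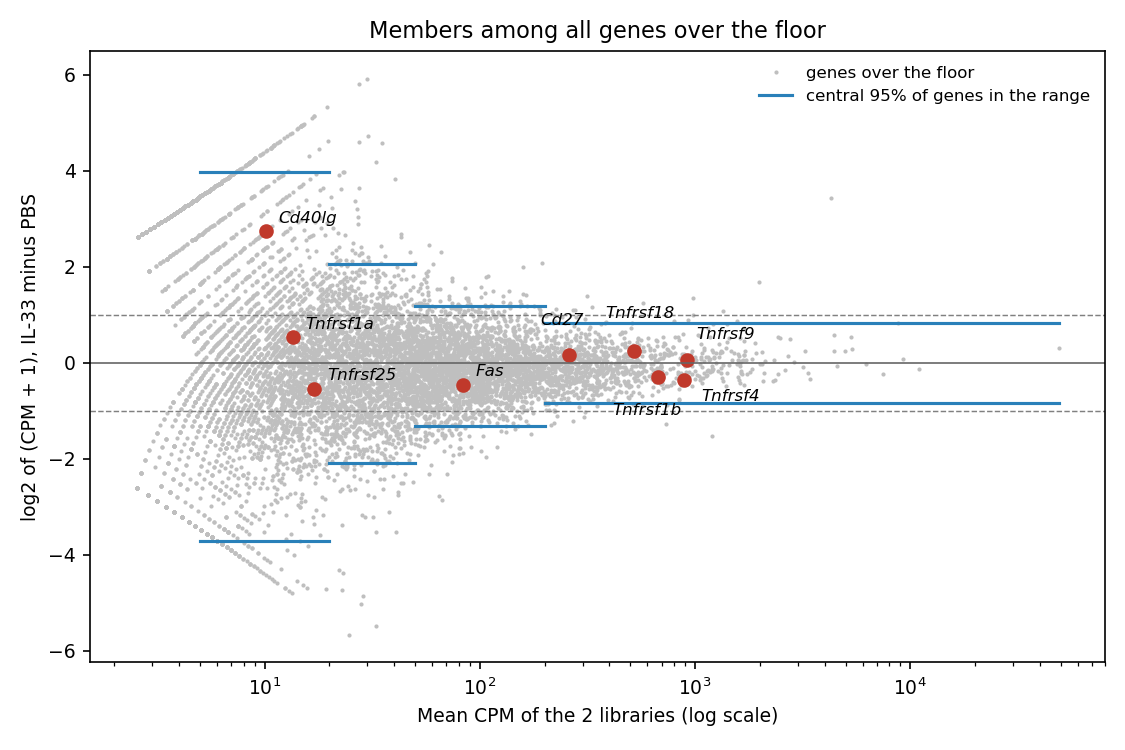
Difference in log2(CPM + 1), IL-33 minus PBS, against the mean CPM of both libraries (log axis), for genes over the floor (grey) and the 9 members over it (red); blue lines bound the central 95% of genes in each range of mean CPM, and dashed lines mark 2-fold. All 9 members lie inside the blue lines, Cd40lg at 2.74 where the lines are at -3.71 and 3.98.

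Set against each other per exon length, the members lay in a steep order in each library, though not wholly the same order in both. In the IL-33 library Tnfrsf4 stood at 573 CPM per kb, Tnfrsf18 at 371, Tnfrsf9 at 346, Tnfrsf1b at 159 and Cd27 at 119. Fas followed at 34 CPM per kb, Cd40lg at 14.7, Tnfrsf1a at 6.24 and Tnfrsf25 at 6.03, and the neighbours Tnfrsf1a and Tnfrsf25 did not differ beyond counting error (ratio 1.04, 0.714 to 1.51). In the PBS library Tnfrsf4 stood at 733 CPM per kb, Tnfrsf9 at 331, Tnfrsf18 at 314, Tnfrsf1b at 195 and Cd27 at 105. There Fas was at 46.8 CPM per kb, Tnfrsf25 at 8.93, Tnfrsf1a at 4.17 and Cd40lg at 1.53. The neighbours Tnfrsf9 and Tnfrsf18 (ratio 1.06, 0.966 to 1.16) and Tnfrsf1a and Cd40lg (2.73, 0.791 to 14.6) did not differ beyond counting error with PBS. Tnfrsf4 ranked 72nd per length with IL-33 and 47th with PBS among 22874 genes with an annotated length. Using the longest transcript as length put Cd27 above Tnfrsf1b and Tnfrsf25 above Tnfrsf1a with IL-33. Using the shortest coding transcript put Tnfrsf9 above Tnfrsf4 and Tnfrsf18, and Cd27 above Tnfrsf1b, in each library. It also put Tnfrsf1a above Cd40lg with IL-33 and above Tnfrsf25 with PBS. These positions therefore rest on the length chosen.

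Together the 10 members took 0.329% of all counts with IL-33 (Wilson interval 0.323 to 0.335) and 0.350% with PBS (0.341 to 0.359). The summed level was 3289 CPM with IL-33 and 3501 CPM with PBS, a ratio of 0.940 (0.911 to 0.970), but TMM scaling put it at 1.02, so the sum has no settled direction. Without Tnfrsf4 the ratio was 1 (0.966 to 1.04), and without Tnfrsf9, the member with the highest mean CPM, it was 0.903 (0.870 to 0.937). Tnfrsf4, Tnfrsf18, Tnfrsf9 and Tnfrsf1b made up 88.0% of the members' counts with IL-33 and 89.3% with PBS. Within that sum the shares differed. Tnfrsf4 took 23.8% of the members' counts with IL-33 (23.1 to 24.5) and 28.6% with PBS (27.4 to 29.8). Tnfrsf18 took 17.2% with IL-33 (16.5 to 17.8) and 13.7% with PBS (12.8 to 14.6). Tnfrsf9 took 28.7% with IL-33 (27.9 to 29.4) and 25.8% with PBS (24.6 to 26.9). Tnfrsf1b took 18.4% with IL-33 (17.8 to 19.1) and 21.3% with PBS (20.2 to 22.4). Tnfrsf18 and Tnfrsf9 thus held larger shares with IL-33, and Tnfrsf4 and Tnfrsf1b smaller ones. Shares of 1 sum depend on each other, and the CPM ratio of Tnfrsf9 itself was 1.05 (0.983 to 1.11).

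Ratios between these 4 genes within a library, which were chosen after their values were seen, do not depend on scaling. The ratio of Tnfrsf18 to Tnfrsf4 was 1.51 times as high with IL-33 as with PBS (1.36 to 1.68), and that of Tnfrsf18 to Tnfrsf1b 1.46 times as high (1.31 to 1.63). The ratio of Tnfrsf9 to Tnfrsf4 was 1.34 times as high (1.23 to 1.46), that of Tnfrsf9 to Tnfrsf1b 1.29 times as high (1.17 to 1.41), and that of Tnfrsf18 to Tnfrsf9 1.13 times as high (1.02 to 1.25). The ratio of Tnfrsf1b to Tnfrsf4 was 1.04 times as high (0.946 to 1.14), an interval that holds 1. These intervals cover counting error only, and at a mean of 200 CPM or more 74.3% of single genes had intervals that left out 1. No share over other pairs of genes was computed, so these ratios are not shown to mark the 4 genes out.

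The rest of the receptor family was thinly counted. Of 19 other receptor genes, 6 were over the floor, 5 were detected below it and 8 were at 0 in each library, among them Ltbr and Tnfrsf21. Of the 6, 3 were higher by 2-fold or more, 1 lower and 2 within 2-fold. Of all genes over the floor, 31.8% were at 2-fold or more. The 3 higher ones, Tnfrsf12a, Tnfrsf13b and Relt, had means of 4.46, 3.19 and 2.82 CPM. All 3 passed the floor only through the IL-33 library, so the count says little of the family. Tnfrsf10b, the mouse receptor for TRAIL, was lower, with 75 counts for IL-33 and 86 for PBS (ratio 0.336, 0.243 to 0.464). Tnfrsf13b, which encodes TACI, was counted 26 times with IL-33 and 0 times with PBS, and the interval of its ratio began at 2.53. Relt was counted 23 times with IL-33 and 0 times with PBS, with a ratio interval that began at 2.22. Tnfrsf12a, the receptor for TWEAK, had 26 counts with IL-33 and 4 with PBS (ratio 2.51, 0.870 to 9.88), and its call did not hold with a pseudocount of 5 CPM. Tnfrsf23 and Tnfrsf26, with ratios of 0.543 and 1.11, were within 2-fold.

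Genes for ligands of the TNF superfamily, among them ligands of receptors that are not members, were low or moderate. Of 17 ligand genes other than Cd40lg, 6 were over the floor and all 6 were within 2-fold, with a median log2 fold of -0.28. Of all genes over the floor, 31.8% were at 2-fold or more, and a count this small does not set the ligand list apart. The gene for TNF itself, Tnf, was at 33.1 CPM with IL-33 and 37.5 CPM with PBS, a ratio of 0.882 (0.645 to 1.22). Tnfsf10, which encodes TRAIL, was at 90.9 CPM with IL-33 and 97.2 CPM with PBS. Tnfsf11, which encodes RANKL, was at 45.6 CPM with IL-33 and 72.4 CPM with PBS (ratio 0.629, 0.496 to 0.802). Tnfsf9, which encodes the ligand of CD137, was at 19.4 CPM with IL-33 and 25.4 CPM with PBS (ratio 0.762, 0.514 to 1.14). Ltb had a ratio of 0.611 (0.357 to 1.06) and Lta of 1.01. The genes for the ligands of OX40 (Tnfsf4), GITR (Tnfsf18) and CD27 (Cd70) were at 0 counts in each library, and Fasl had 0 counts with IL-33 and 1 with PBS.

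The lists described next hold genes that act below the receptors and, in the last list, genes of receptor shedding. In them, 3 of 16, 2 of 4, 3 of 9 and 1 of 3 genes over the floor were at 2-fold or more. The share of all genes over the floor was 31.8%, and counts this small do not set the lists apart. Of 19 TRAF, cIAP and ubiquitin genes, 16 were over the floor, with 1 higher, 2 lower, 13 within 2-fold and a median log2 fold of -0.11. Tnfaip3, which encodes the NF-kB brake A20, was at 2228 CPM with IL-33 and 2633 CPM with PBS (ratio 0.846, 0.816 to 0.878). Cyld, a deubiquitinase gene, had a ratio of 0.706 (0.646 to 0.771), and Tab2, an adaptor of the TAK1 kinase, 0.668 (0.613 to 0.729). Traf6, at 0.406, and Sharpin, a subunit of the linear ubiquitin ligase, at 0.482 (0.350 to 0.667), were lower, the call of Sharpin not holding under TMM scaling, and Traf4 had 27 counts with IL-33 and 1 with PBS (ratio 10.4, 1.72 to 426). The 4 non-canonical NF-kB genes had a median log2 fold of -0.86. All 4 lay below 0 by deposited totals, but under TMM Map3k14 was at 0.01. Nfkb2, at 0.363 (0.217 to 0.606), and Chuk, which encodes the kinase IKK-alpha, at 0.488 (0.395 to 0.603), were lower by 2-fold, the call of Chuk not holding under TMM scaling, while Relb, at 0.608 (0.460 to 0.807), and Map3k14, at 0.93 (0.517 to 1.75), were not.

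Of 10 effector genes of death receptors, 9 were over the floor, with 3 higher, 0 lower and a median log2 fold of 0.57. Faim, an inhibitor of Fas-induced death, was at 149 CPM with IL-33 and 66.1 CPM with PBS, a ratio of 2.25 (1.83 to 2.8), where 10.9% of genes with a mean of 50 to 200 CPM were at 2-fold or more. Mlkl, whose product carries out necroptosis, was counted 41 times with IL-33 and 0 times with PBS, with a ratio interval that began at 4.1. Casp8, which Fas activates, was at 0.771 (0.654 to 0.911), and Cflar, whose product cFLIP restrains it, at 0.836 (0.765 to 0.915). Among proteases that shed TNF receptors, Adam17 was at 0.93 (0.697 to 1.25) and Adam10 at 1.09 (0.943 to 1.25). Rhbdf2, which brings ADAM17 to the cell surface, was counted 56 times with IL-33 and 0 times with PBS. Its ratio interval began at 5.66.

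**Figure D4:**
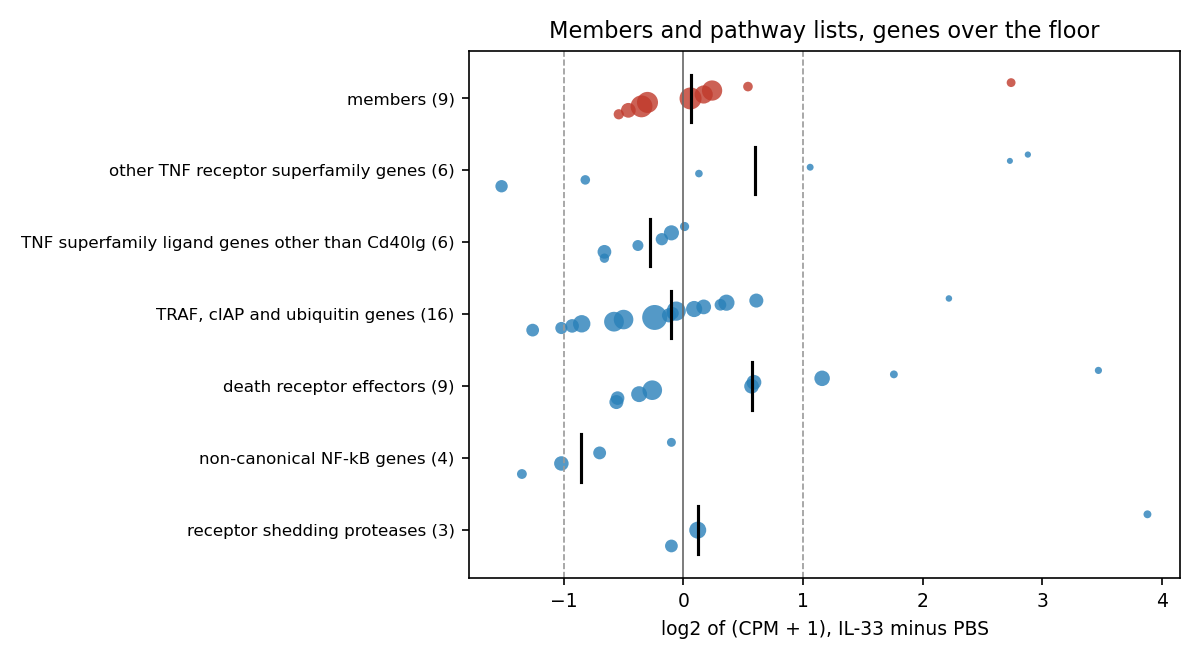
Difference in log2(CPM + 1), IL-33 minus PBS, for genes over the floor in each list (number in brackets), the members in red; point area grows with mean CPM, black bars are list medians and dashed lines mark 2-fold. The large points of the members lie between -0.35 and 0.24, and the farthest point of each list other than the ligands is a small one, of low mean CPM.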

How the data were processed

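Per the labels' protocols, poly(A) RNA of sorted cells was converted to cDNA, amplified and fragmented with a transposon, and read as paired 25 bp reads. The authors deposited whole-number counts per gene symbol for 23337 symbols in 2 libraries. The submitters' processing notes name the mm10 genome, Cufflinks 2.2.1 and TopHat2 2.0.10. The counting program, the annotation and whether strand was used: not given in the sources used here.

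Columns were tied to libraries by name, and 0 were left unused. CPM was computed on the deposited totals. Ratios carry exact conditional (Clopper-Pearson) intervals. With 1 library per group, no test was made. Calls need 5 CPM in a library and 2-fold on log2(CPM + 1). Lengths (merged exons) are from GENCODE M21. Of the table's symbols, 20929 matched by symbol, 1945 by a RefSeq synonym and 463 not at all.

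Named were all members and, per list, the 3 genes with the highest mean CPM and the 3 others over the floor farthest from 0. Some genes that this rule picks are not reported here. Cd40, Ltbr, Tnfrsf21, Tnfsf4, Tnfsf18, Cd70 and Fasl were named after their values were seen. Members and 6 lists were chosen with earlier results of these data known. The functions were tested on simulated data. Tools were edgeR 4.0.16 in R 4.3.3 (TMM factors only), and scipy 1.17.1, numpy 2.4.6, pandas 2.3.3 and matplotlib 3.10.9 in Python 3.11.15.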

Additional observations from a re-analysis of the deposited data

How the results depend on the processing

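No paired analysis was possible because each group held 1 library. With a floor of 20 CPM, 0 members in place of 1 were higher by 2-fold, since Cd40lg falls below it. Under the other alternatives run (3 scalings, other pseudocounts, no floor, a 1.5-fold rule) that count stayed at 1, with 0 lower. The log2 fold of Cd40lg ran from 1.76 with a pseudocount of 5 CPM to 2.97 with 0.5 CPM. The log2 folds of the other detected members kept their sign under each scaling and pseudocount. The summed level, 0.940 by deposited totals, was 1.02 by TMM and 1.02 by median-of-ratios size factors, which add 0.12 and 0.11 to every log2 ratio. Over the 72 list genes, 8 were higher and 5 lower. The lower count was 3 by TMM, 3 by median-of-ratios size factors, 3 without the 10 most abundant genes in the total and 3 with a pseudocount of 5 CPM. In each of these, Sharpin and Chuk, both at -1.02 by deposited totals, lost the call, and the non-canonical NF-kB list then had 1 lower gene in place of 2. The higher count was 7 with a pseudocount of 5 CPM, where Tnfrsf12a lost its call, 13 with no floor and 1 with a floor of 20 CPM. With the longest transcript as length, Tnfrsf1b to Tnfrsf1a was 21.1 with IL-33 and 39.0 with PBS, and with the shortest coding transcript, an alternative chosen after seeing the data, 3.82 with IL-33 and 7.05 with PBS. Depth limits Cd40lg, Tnfrsf1a and Tnfrsf25 with PBS, with 3, 17 and 32 counts.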
